A study of Cynoglossus semilaevis with 30 samples.

Results

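The genes described here are the enzymes of fatty acid degradation in the Chinese tongue sole, Cynoglossus semilaevis, a flatfish whose females grow larger than its males. The rule used annotation: a gene was a member when its pathway annotation in the deposited table named fatty acid degradation (ko00071) and did not name glycolysis and gluconeogenesis (ko00010), and the carnitine palmitoyltransferase cpt1b was left out by its symbol. Of 22292 genes in the table, 48 carried the pathway, 12 of these were shared with glycolysis, and 35 genes remained after cpt1b was removed. By step of beta-oxidation they were 10 acyl-CoA ligases (activation), 4 genes of the carnitine shuttle, 8 of the first dehydrogenation, 5 of hydration, 2 of the second dehydrogenation and 6 of thiolysis. The rule used no measured value.

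RNA-seq covered 5 tissues (gonad, muscle, pituitary, liver and brain) of large and of small females, all 1.7 years old per the labels. Each library held RNA pooled from 2 fish, so that each of the 10 tissue and size groups had 3 libraries from 6 fish, and each tissue had 6 libraries. The labels name no treatment, strain or genotype, and give no body weight or length for either class. Libraries held 6130667 to 10504899 counts over all genes.

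Beta-oxidation shortens fatty acids by a pair of carbons at a time. A ligase of the outer mitochondrial membrane or the endoplasmic reticulum first joins the fatty acid to coenzyme A, the carnitine shuttle carries long chains into the mitochondrion, and a cycle of dehydrogenation, hydration, second dehydrogenation and thiolysis then releases acetyl-CoA and reduced electron carriers. Peroxisomes run a parallel cycle that starts with an acyl-CoA oxidase. Liver, muscle and heart are the tissues in which the pathway is best known, and in fish, whose diet is rich in lipid and protein and poor in starch, fatty acids are a main fuel. Oocytes of vertebrates also draw on stored lipid.

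Levels are given as normalised FPKM, which is the deposited FPKM (fragment counts scaled to transcript length and library size) divided by the library's TMM factor over all 30 libraries. The factors were 0.289 to 0.630 in liver, 0.403 to 0.565 in muscle, 1.54 to 2.05 in brain, 1.70 to 1.80 in pituitary and 1.23 to 1.65 in gonad. Deposited FPKM therefore place liver and muscle lower and the other 3 tissues higher than normalised FPKM do, and a difference between tissues is given as a direction only where both scales gave it, or with the scale named. Each adjusted p is from edgeR's quasi-likelihood test with Benjamini-Hochberg adjustment over all genes tested, at a threshold of 0.05. All p-values measure only the spread between these pooled libraries, and in whole tissue fewer cells of a type and less RNA per cell cannot be told apart.

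The marker lists of the 5 tissues had their highest sums in the labelled tissue. Summed normalised FPKM were 299.95 to 820.3 for 6 neuron and glia genes in brain, 61764 to 94508 for 6 pituitary genes in pituitary and 120015 to 254501 for 10 hepatocyte genes in liver. They were 2952 to 4915 for 9 oocyte and ovary genes in gonad and 102728 to 168235 for 5 fast muscle genes in muscle. Several libraries also held markers of another tissue. The 10 hepatocyte genes summed to 869 to 2349 in brain libraries, above the neuron and glia sum in each of them, and to 304 to 4385 in muscle libraries. The 9 oocyte and ovary genes summed to 597 to 1155 in large muscle libraries, against 258 to 286 in small muscle libraries, while no liver or pituitary library exceeded 13.6. The 5 fast muscle genes summed to 238 in large pituitary replicate 2, against at most 1.17 in the other 5 pituitary libraries. Exocrine pancreas genes (4 found) summed to 60614 to 255098 in large livers, against 11449 to 78280.3 in small livers. Replicates also differed in how close they were: the median chi-square per gene between 2 libraries of a group was 1.63 to 1.75 times that of sampling noise in small pituitary, 1.82 to 1.91 times in small muscle and 1.86 to 2.46 times in large gonad, against 3.14 to 20.9 times in the other 7 groups. Where libraries this close share source RNA, the p-values of comparisons that use them are too small; the source of their likeness was not tested.

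**Figure D1:**
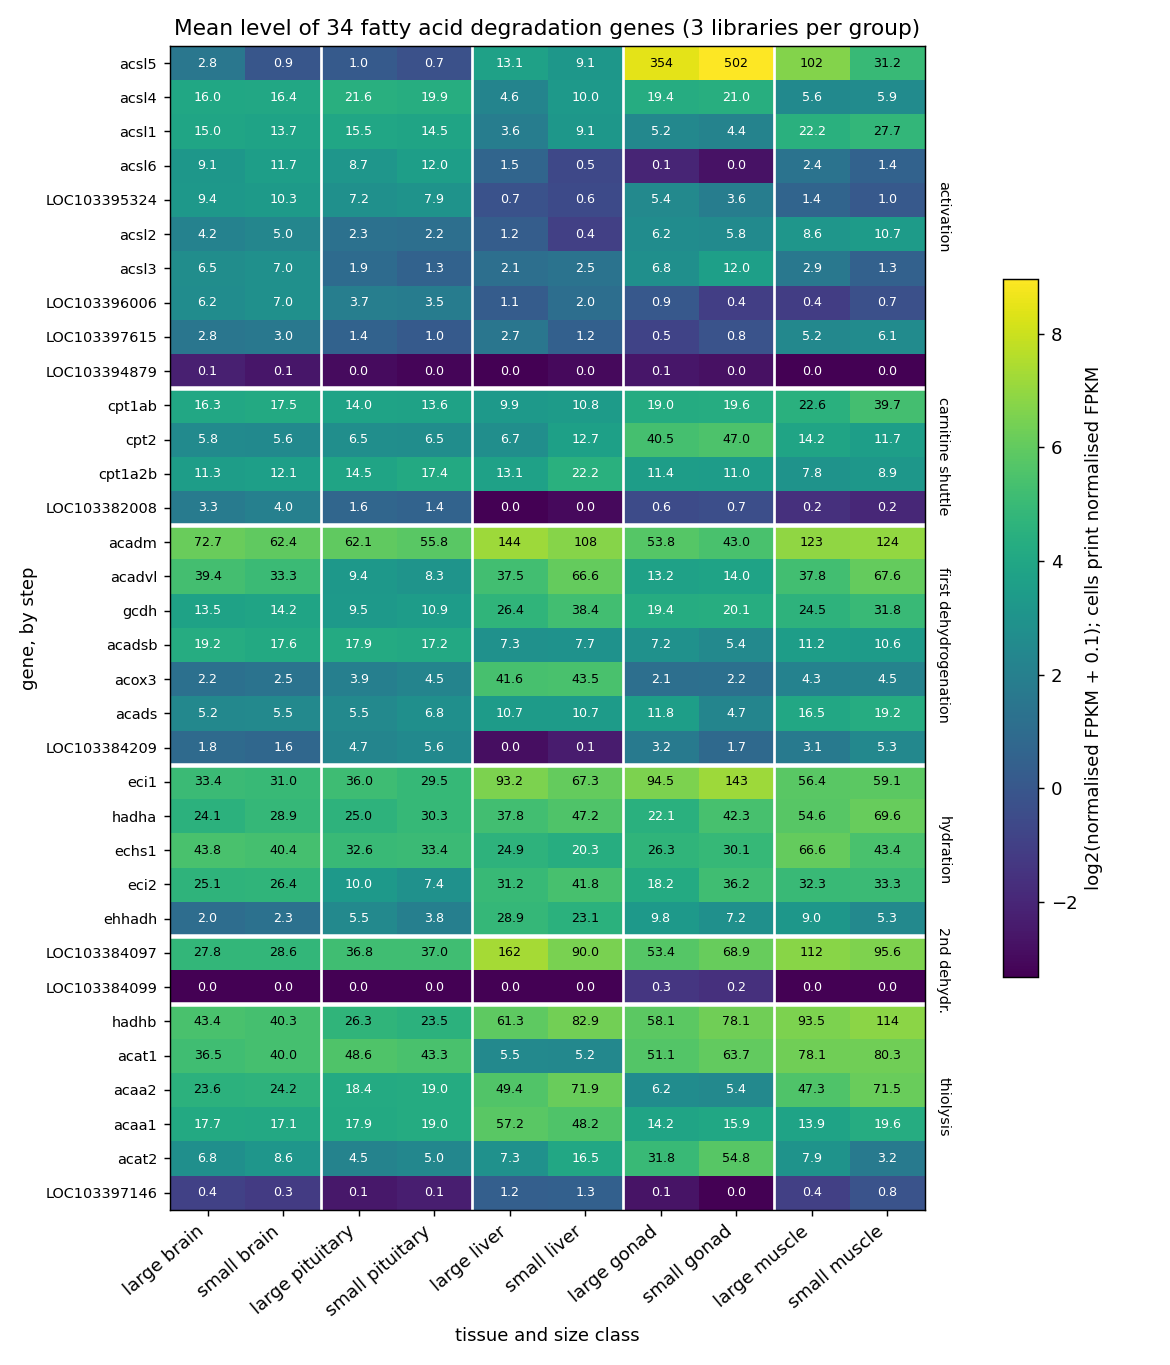
Mean normalised FPKM (3 libraries per group) of 34 genes, in rows by step, in the 10 tissue and size groups, large left of small within each tissue; colour is log2(normalised FPKM + 0.1) and each cell prints the mean. acsl5 reached 354 in large gonads and 502 in small gonads, and 3 genes (LOC103394879, LOC103384099 and LOC103397146) lay near 0 in most groups.

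All 35 genes had at least 1 count. At the low end stood LOC103384099, annotated as hydroxyacyl-coenzyme A dehydrogenase, with 16 counts over all 30 libraries, LOC103394879, an ACSBG2-like ligase, with 35, and LOC103397146, a thiolase-like gene, with 88. These 3 were tested in no tissue, and the tissue comparisons below cover the other 32 genes. Several members have close relatives in the genome (3 ACSBG2-like ligases, 3 liver-type CPT1 genes, 2 hydroxyacyl-CoA dehydrogenases), and how the authors' counting split reads between such copies is not known.

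On the normalised scale the highest of the 5 tissue means fell in liver for 11 genes, in muscle for 10, in brain for 6, in gonad for 6 and in pituitary for 2. On deposited FPKM it fell in brain for 18 genes, in gonad for 13, in pituitary for 3, in liver for 1 and in muscle for 0. Against the mean of the other 4 tissues, 15 of 32 genes were higher and 13 lower in liver, where 27.3% of all genes tested were higher and 38.5% lower. The same counts were 18 and 8 in muscle (40.5% and 19.0% of all genes), 13 and 13 in gonad (39.2% and 39.2%), 14 and 12 in brain (43.9% and 30.8%) and 11 and 20 in pituitary (38.9% and 30.1%). On deposited FPKM with limma the counts were 3 higher and 26 lower in liver, 2 and 23 in muscle, 20 and 11 in gonad, 25 and 4 in brain and 19 and 5 in pituitary. Of all 19462 genes on that scale, 1575 were higher and 16460 lower in liver, and 2020 and 15319 in muscle. They numbered 8617 and 9015 in gonad, 12666 and 3903 in brain, and 11207 and 4602 in pituitary. The median of all genes itself lay at -1.06 (log2) in liver, -0.79 in muscle, -0.07 in gonad, 0.69 in brain and 0.49 in pituitary on that scale, against -0.54, 0.19, -0.41, 0.15 and 0.02 in the same tissues with TMM. Calls shared by both scales were 3 higher and 13 lower in liver, 2 and 8 in muscle, 12 and 10 in gonad, 14 and 4 in brain and 11 and 5 in pituitary.

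In the activation step, acsl5 was the main ligase of the gonad. This long-chain acyl-CoA synthetase averaged 428 ± 87.5 normalised FPKM in gonad (SD, n = 6), 66.8 ± 50.3 in muscle, 11.1 ± 7.05 in liver, 1.84 ± 2.19 in brain and 0.884 ± 0.333 in pituitary. Its level in every gonad library exceeded that in every other library, and the log2 difference of gonad from the other 4 tissues was 6.29 ± 0.25 (SE), adjusted p = 6.74e-19 (6.68 on deposited FPKM). Of the summed FPKM of the 10 ligase genes, acsl5 made up 88.8% ± 0.0677 in large gonads and 91.3% ± 0.342 in small gonads (SD, n = 3 each), 65.4% ± 14.7 in large muscle and 36.3% ± 3.19 in small muscle; in brain and pituitary its mean share lay between 1.17% and 4.14%. In muscle, acsl5 and the oocyte markers were high in the same libraries. Their levels are set against gonad on the normalised scale. On deposited FPKM muscle stood lower against gonad, with acsl5 averaging 33.2 in muscle and 614 in gonad. As a percent of their mean over the 6 gonad libraries, the 9 oocyte and ovary genes stood at 15.3, 29.6 and 21.8 in large muscle replicates 1, 2 and 3 and at 6.62, 7.15 and 7.32 in those of small muscle. acsl5 stood at 14.8, 37.1 and 19.8% of its gonad mean in the same large muscle libraries and at 6.68, 7.72 and 7.44% in the small ones. Large brain replicate 3 showed the same pair of values at a lower level: the oocyte genes were at 1.34% and acsl5 at 1.47% of their gonad means, against at most 0.32% and 0.31% in the other 5 brain libraries. Of the 9 oocyte and ovary genes, 9 had reads in large muscle and 8 in small muscle. The part of ovary-type transcripts in the muscle level of acsl5, and so in its higher level in muscle than in the mean of the other 4 tissues (2.67 with TMM, 1.07 on deposited FPKM), was not tested.

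**Figure D2:**
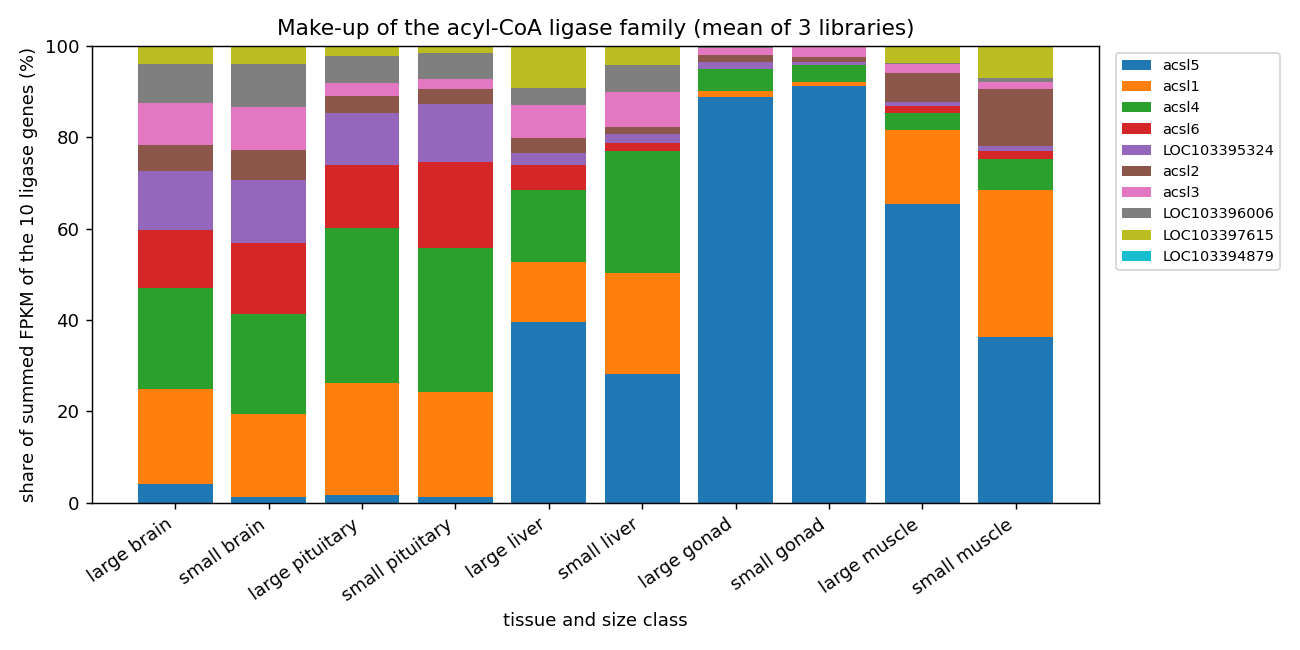
Share of each of the 10 acyl-CoA ligase genes in their summed FPKM (percent, mean of 3 libraries), for the 10 groups, large left of small. acsl5 filled 88.8% of the bar in large gonads and 91.3% in small gonads, while in large brains acsl4 (22.1%), acsl1 (20.8%), LOC103395324 (12.9%) and acsl6 (12.6%) held the largest shares.

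Other ligases were higher in other tissues. acsl6, which in mammals is the acyl-CoA synthetase of neurons, averaged 10.4 ± 1.99 normalised FPKM in brain and 10.4 ± 1.81 in pituitary (SD, n = 6 each), against 1.90 in muscle, 1.03 in liver and 0.0974 in gonad. Its differences from the other 4 tissues were 3.26 ± 0.14 (SE), adjusted p = 1.40e-17 in brain and 3.24 ± 0.14 (SE), adjusted p = 1.80e-17 in pituitary, with the same direction on deposited FPKM. LOC103396006, annotated as ligase 3-like, and LOC103395324, an ACSBG2-like ligase, were likewise higher in brain and pituitary on both scales, with log2 differences of 2.52 and 2.10 in brain. acsl3, an enzyme of lipid droplets in mammals, was higher in gonad (1.78 ± 0.11 (SE), adjusted p = 4.84e-14) and brain (1.25) on both scales. acsl4, which prefers arachidonate, averaged 20.8 in pituitary, 20.2 in gonad and 16.2 in brain, against 7.28 in liver and 5.78 in muscle. acsl1 (24.9 in muscle, 15.00 in pituitary) and acsl2 (9.67 in muscle, 5.98 in gonad) had their highest normalised level in muscle but not their highest deposited FPKM. The ACSBG2-like LOC103397615 was higher in muscle than in the mean of the other 4 tissues on both scales (2.02 and 0.34 in log2), at 5.63 ± 2.41 normalised FPKM. On deposited FPKM its mean was 2.73 in muscle and 5.35 in brain.

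In the carnitine shuttle, cpt2 was higher in gonad, while the place of cpt1ab depended on the scaling. CPT1 transfers the acyl group to carnitine at the outer mitochondrial membrane and is the controlled step of entry, and CPT2 returns it to coenzyme A inside. cpt1ab averaged 31.2 ± 9.60 normalised FPKM in muscle, 19.3 ± 1.67 in gonad, 16.9 ± 1.82 in brain, 13.8 ± 0.429 in pituitary and 10.3 ± 3.55 in liver (SD, n = 6 each). It was higher in muscle with TMM (1.03) and lower there on deposited FPKM (-0.29), so muscle's place depended on the scaling. cpt1a2b ranged between 8.34 in muscle and 17.7 in liver, and LOC103382008, the other CPT1 gene, was at 3.67 in brain, 1.49 in pituitary and under 1 elsewhere, with brain highest on both scales. cpt2 was at 43.7 ± 4.48 in gonad, 12.96 ± 2.20 in muscle, 9.70 ± 3.75 in liver, 6.50 ± 0.553 in pituitary and 5.71 ± 0.603 in brain. Every gonad library exceeded every other one, and the difference of gonad was 2.42 ± 0.08 (SE), adjusted p = 9.56e-21 (2.92 on deposited FPKM).

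Among the first dehydrogenases, acadm, the medium-chain enzyme, was the most abundant in every tissue, at 126 normalised FPKM in liver, 124 in muscle, 67.6 in brain, 58.97 in pituitary and 48.4 in gonad. Its rank turned with the scaling: the liver difference was 0.84 with TMM and -0.63 on deposited FPKM. acadvl, which takes very long chains, ranged between 8.81 in pituitary and 52.7 in muscle, with brain at 36.4 and gonad at 13.6. acads (short chains) lay between 5.32 in brain and 17.9 in muscle, and acadsb (branched short chains) between 6.33 in gonad and 18.4 in brain. acox3, a peroxisomal acyl-CoA oxidase, was higher in liver on both scales. It was at 42.5 ± 5.71 in liver, against at most 4.40 in the other tissues (3.77 ± 0.12 (SE), adjusted p = 3.87e-20; 2.03 on deposited FPKM). Of the glutaryl-CoA dehydrogenases, which act on lysine and tryptophan breakdown, gcdh lay between 10.2 in pituitary and 32.4 in liver, and LOC103384209 between 0.0631 in liver and 5.18 in pituitary.

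In the hydration step, ehhadh, the bifunctional enzyme of the peroxisome, was at 26.03 ± 6.63 in liver, against 8.51 in gonad, 7.18 in muscle, 4.66 in pituitary and 2.18 in brain. Like acox3 it was higher in liver than in the mean of the other 4 tissues on both scales (2.40 with TMM and 0.79 on deposited FPKM). On deposited FPKM ehhadh was at 7.36 to 16.4 in liver libraries and 7.84 to 16.7 in gonad libraries, so its rank between these tissues depended on the scaling. eci1, an isomerase that shifts the double bonds of unsaturated fatty acids, was higher in gonad, at 119 ± 32.8 (1.31 ± 0.08 (SE), adjusted p = 4.36e-14), with liver at 80.2, muscle at 57.8, pituitary at 32.8 and brain at 32.2. eci2 ranged between 8.69 in pituitary and 36.5 in liver, echs1, the short-chain hydratase, between 22.6 in liver and 54.98 in muscle, and hadha between 26.5 in brain and 62.1 in muscle. Of the 2 genes placed in the second dehydrogenation, a step that the chains of hadha and ehhadh also serve, LOC103384097 had the higher mean FPKM, at 126 ± 47.03 in liver, 104 ± 13.3 in muscle, 61.1 ± 11.4 in gonad, 36.9 ± 2.55 in pituitary and 28.2 ± 2.29 in brain. Its liver difference was 1.25 with TMM and -0.22 on deposited FPKM.

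Among the thiolases, acat2 was higher in gonad and acat1 lower in liver. hadhb, the thiolase subunit of the mitochondrial trifunctional protein of which hadha is the other chain, had the highest mean FPKM of them over all libraries, at 104 in muscle, 72.1 in liver, 68.1 in gonad, 41.9 in brain and 24.9 in pituitary. Its muscle difference was 1.13 with TMM and -0.18 on deposited FPKM. acat1, the mitochondrial acetyl-CoA acetyltransferase that also serves ketone bodies, was lower in liver on both scales, at 5.33 ± 1.22, against 38.3 in brain, 45.96 in pituitary, 57.4 in gonad and 79.2 in muscle (-3.30 ± 0.12 (SE), adjusted p = 3.03e-19). acat2, its cytosolic relative that starts the mevalonate pathway, was higher in gonad, at 43.3 ± 13.2 (2.63 ± 0.19 (SE), adjusted p = 3.36e-13), against 11.9 in liver and 4.74 in pituitary. acaa1 of the peroxisome was at 52.7 normalised FPKM in liver and 15.1 to 18.4 elsewhere. On deposited FPKM it was at 16.5 to 34.6 in liver libraries and 28.3 to 34.4 in brain libraries, so liver's place depended on the scaling. acaa2 of the mitochondrion was at 60.7 normalised FPKM in liver and 59.4 in muscle, and at 5.80 in gonad, where it was lower on both scales.

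Large and small females were then compared within each tissue. In gonad 5 of 31 genes tested were higher and 6 lower in large females, where 10.9% and 13.5% of all genes tested were called. In muscle 2 of 30 were higher and 4 lower (13.1% and 10.4% of all genes), and in pituitary 0 of 32 were higher and 1 lower (2.42% and 3.4%). With edgeR 0 of 28 genes passed in liver (0.732% of all genes higher, 0.581% lower) and 0 of 32 in brain (0.00592% and 0.00592%). The median log2 fold change of the members, large minus small, was -0.05 in gonad, -0.14 in muscle, 0.06 in pituitary, -0.10 in liver and -0.09 in brain, beside 0.03, 0.03, 0.02, -0.02 and 0.00 for all genes tested in the same tissues. Of the members tested, 35.5% passed in gonad and 20.0% in muscle, with calls in both directions; whether these shares differ from those of all genes was not tested.

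**Figure D3:**
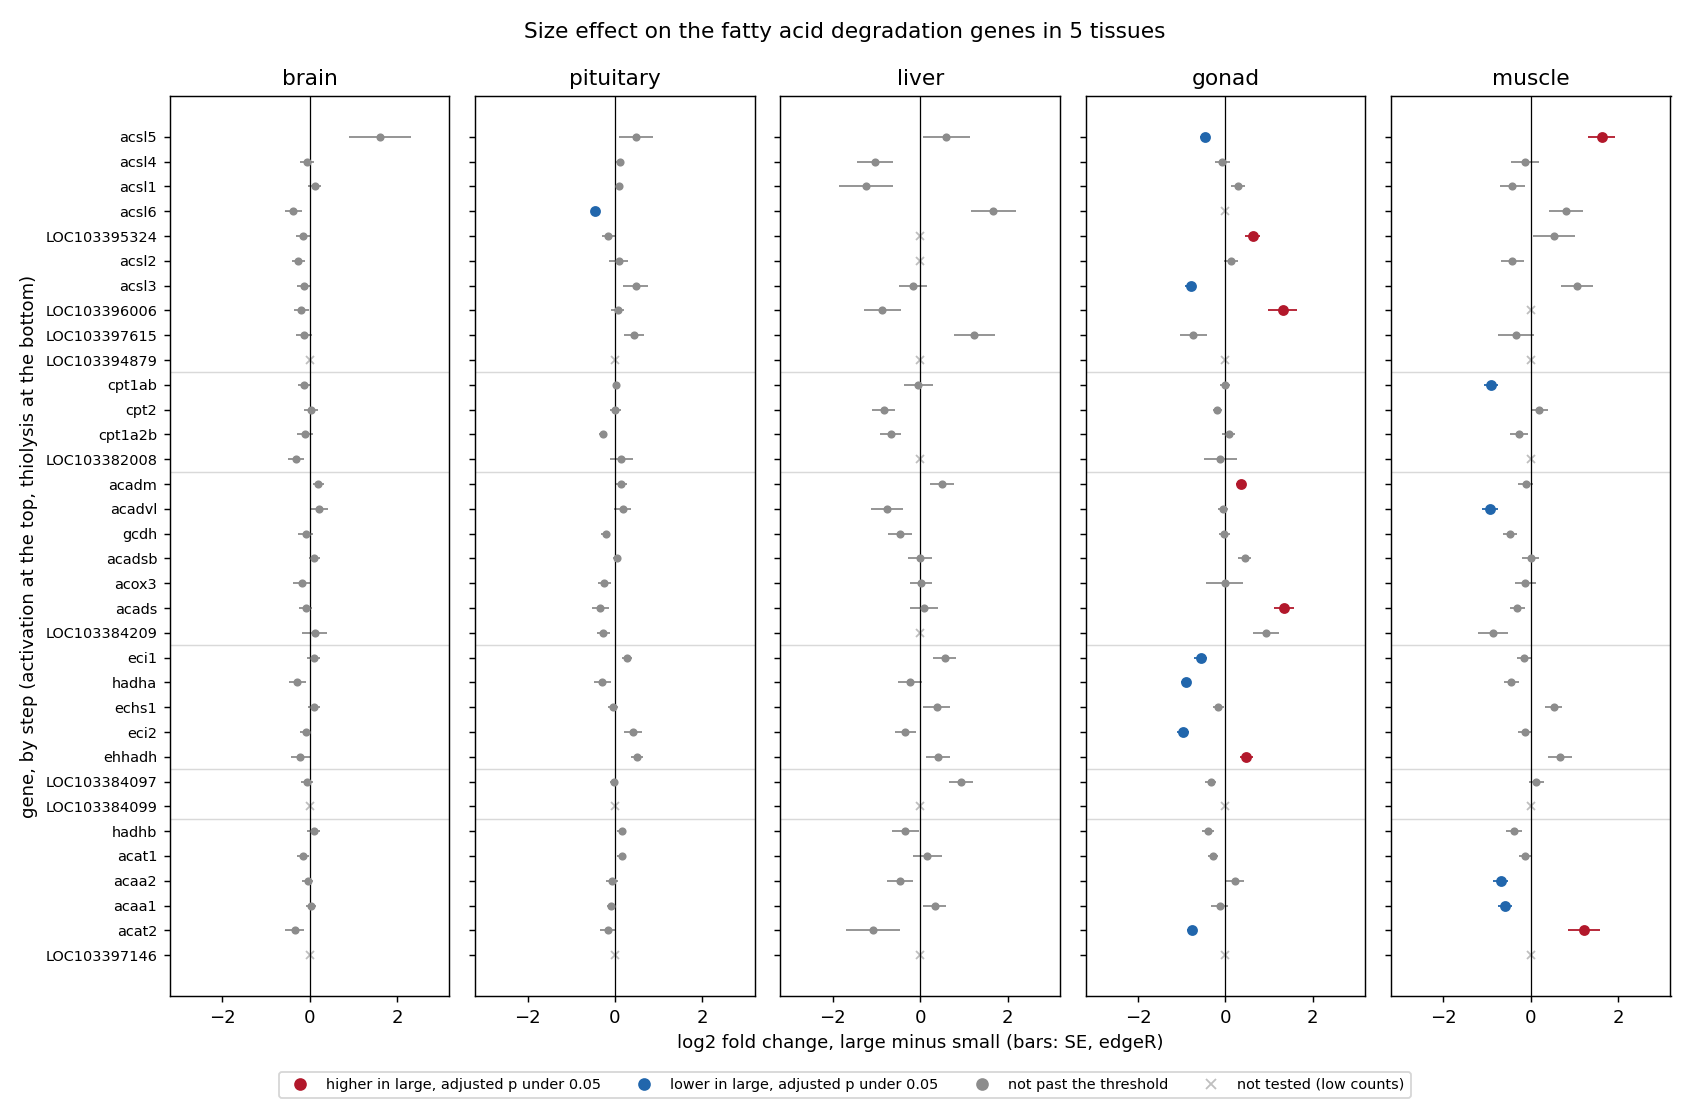
Log2 fold change, large minus small, with its SE (bars), for 34 genes by step in 5 tissues; red marks genes higher and blue genes lower in large females at an adjusted p under 0.05, grey those that did not pass and crosses those not tested. Coloured points number 11 in gonad, 6 in muscle and 1 in pituitary.

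In gonad, the genes lower in large females included both enoyl-CoA isomerases and the alpha chain of the trifunctional protein. hadha, whose chain holds the long-chain hydratase and dehydrogenase sites, stood at 22.2, 22.7 and 21.3 normalised FPKM in large gonads, against 41.5, 43.8 and 41.6 normalised FPKM in small gonads. The groups did not overlap, and the log2 fold change was -0.91 ± 0.10 (SE), adjusted p = 0.000735. hadhb, the gene of its partner chain, stood at 59.8, 58.8 and 55.6 normalised FPKM in large gonads, against 66.9, 93.5 and 74.02 normalised FPKM in small gonads. These values also did not overlap, but hadhb did not pass (-0.40 ± 0.13 (SE), adjusted p = 0.0502). With DESeq2 its adjusted p was 0.0267. On deposited FPKM its size classes overlapped, at 97.0, 95.7 and 91.9 in large gonads and 91.6, 114.7 and 96.4 in small gonads. The ratio of hadha to hadhb FPKM was 0.380 ± 0.008 in large gonads and 0.551 ± 0.077 in small gonads (SD, n = 3 each). eci2, the peroxisomal and mitochondrial isomerase 2, had 18.4, 19.2 and 17.02 normalised FPKM in large gonads, against 31.98, 42.9 and 33.6 normalised FPKM in small gonads. Every large library lay below every small one (-0.96 ± 0.14 (SE), adjusted p = 0.00244). For eci1 the values were 98.9, 93.2 and 91.4 normalised FPKM in large gonads, against 119, 177 and 133 normalised FPKM in small gonads, with small replicate 2 the highest and no overlap (-0.57 ± 0.14 (SE), adjusted p = 0.02).

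Of the gonad-high genes of activation and thiolysis, 3 were lower in large gonads. acat2 had 33.6, 30.1 and 31.7 normalised FPKM in large gonads, against 52.6, 61.4 and 50.3 normalised FPKM in small gonads (-0.76 ± 0.11 (SE), adjusted p = 0.00282). acsl3 had 6.98, 6.68 and 6.72 normalised FPKM in large gonads, against 11.1, 13.8 and 11.1 normalised FPKM in small gonads (-0.80 ± 0.13 (SE), adjusted p = 0.00377). In both, the large libraries lay within a narrow band below all small ones. acsl5, the main ligase of this tissue, had 364, 349.8 and 348 normalised FPKM in large gonads, against 469, 562 and 476 normalised FPKM in small gonads (-0.48 ± 0.11 (SE), adjusted p = 0.0123). Its fall was the smallest of the 6, again without overlap. cpt2, the other gonad-high gene, had 40.1, 39.99 and 41.3 normalised FPKM in large gonads, against 45.9, 51.6 and 43.5 normalised FPKM in small gonads and did not pass (-0.19 ± 0.10 (SE), adjusted p = 0.197). On deposited FPKM it lay higher in every large gonad, at 65.1, 65.0 and 68.2, against 62.8, 63.3 and 56.6 in small gonads.

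The genes higher in large gonads were acads, acadm, ehhadh and 2 ligases. acads, the short-chain dehydrogenase, had 11.4, 12.95 and 11.1 normalised FPKM in large gonads, against 5.07, 2.91 and 6.24 normalised FPKM in small gonads. Every large library lay above every small one, among which replicate 2 was lowest (1.33 ± 0.23 (SE), adjusted p = 0.00446). acadm, the medium-chain dehydrogenase, had 57.8, 52.4 and 51.3 normalised FPKM in large gonads, against 47.3, 39.8 and 41.9 normalised FPKM in small gonads (0.35 ± 0.11 (SE), adjusted p = 0.0435), a small difference whose groups lay close together without overlap. Its call was lost with DESeq2 (adjusted p = 0.0566), RLE factors (0.0527), no filter on low counts (0.0588), a replicate block (0.0652) and a fit over all 30 libraries (0.25). It was also lost in 5 of the 6 fits that left out 1 gonad library. ehhadh had 10.04, 9.36 and 10.1 normalised FPKM in large gonads, against 7.84, 7.72 and 6.02 normalised FPKM in small gonads (0.48 ± 0.14 (SE), adjusted p = 0.0363). Among the ligases, LOC103395324 had 6.37, 5.35 and 4.48 normalised FPKM in large gonads, against 4.10, 3.32 and 3.28 normalised FPKM in small gonads (0.62 ± 0.18 (SE), adjusted p = 0.0326), with the lowest large value just above the highest small one. LOC103396006 was under 1 in every gonad library, at 0.937, 0.929 and 0.963 normalised FPKM in large gonads, against 0.380, 0.489 and 0.292 normalised FPKM in small gonads (1.31 ± 0.33 (SE), adjusted p = 0.0192). The other 20 genes tested in gonad had log2 fold changes between -0.74 (LOC103397615) and 0.93 (LOC103384209) and did not pass.

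Summed markers also differed between the gonad groups. The 9 oocyte and ovary genes summed to 2952 to 3122 normalised FPKM in large gonads, against 4686 to 4915 in small gonads, and 3 of the 9 were lower and 0 higher at the threshold (13.5% and 10.9% of all genes tested in gonad). A list of 17 genes of mitochondrial content summed to 2089 to 2173 in large gonads, against 2672 to 3251 in small gonads, with 6 lower and 1 higher. The median log2 fold change was -0.21 for the oocyte and ovary genes and -0.16 for the mitochondrial list. Both sums carry the gonad factors, which were 1.62 to 1.65 in large gonads and 1.23 to 1.37 in small gonads. The part of these markers in the falls of hadha, eci1, eci2, acat2, acsl3 and acsl5 was not tested. With the 3 nearly alike large gonad libraries summed to 1, 0 members passed (12 of 15007 genes did in all). Calls over all genes are not given here for fits that left out 1 library. Without large replicate 1, 2 or 3 in turn, 1 member was higher (acads) and 4 lower (hadha, eci2, acat2 and acsl3). Without small replicate 3 the counts of members were 3 higher and 8 lower. On deposited FPKM with limma 9 were higher and 4 lower, a scale on which the median of all genes lay at 0.27 and on which acsl5 and eci1 did not pass. Of all 12481 genes tested on it, 3735 were higher and 775 lower. In a fit over all 30 libraries, 2 were higher (acads and LOC103396006) and 4 lower (acsl3, eci1, eci2 and hadha). Of all 19511 genes in that fit, 1001 were higher and 887 lower in large gonads.

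**Figure D4:**
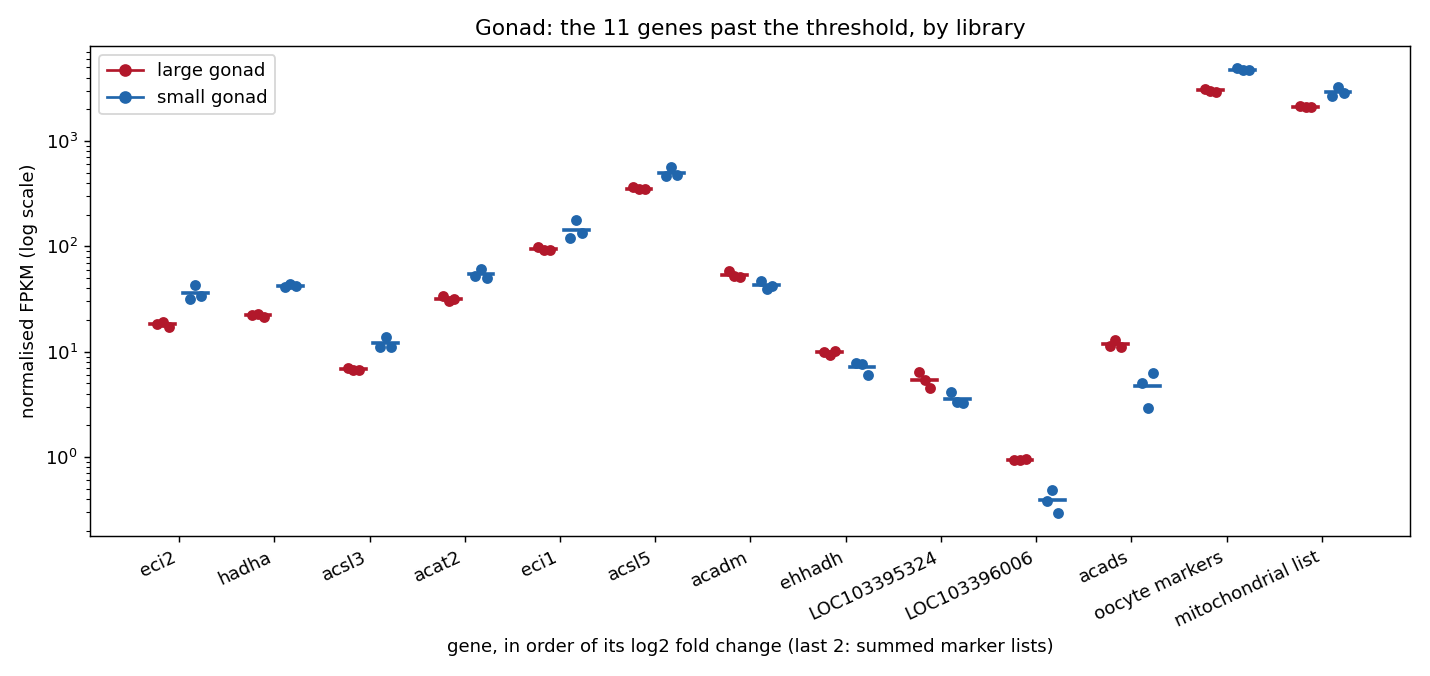
Normalised FPKM (log axis) of the 11 genes past the threshold in gonad, by library (points) with the mean of 3 (lines), large gonads left (red) and small gonads right (blue), followed by the summed oocyte markers and the summed mitochondrial list. The 6 genes at the left were lower and the 5 next to them higher in large gonads, the comparison by which they were chosen.

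In muscle, cpt1ab, acadvl, acaa2 and acaa1 were lower and acsl5 and acat2 higher in large females. By step, 1 of 3 carnitine shuttle genes tested, 1 of 8 of the first dehydrogenation and 2 of 5 of thiolysis were lower, and 1 of 8 ligases and 1 of 5 thiolases were higher. cpt1ab, the main CPT1 gene of muscle after cpt1b was set aside, had 25.2, 20.8 and 21.8 normalised FPKM in large muscle libraries, against 42.3, 37.6 and 39.3 normalised FPKM in small muscle libraries (-0.91 ± 0.16 (SE), adjusted p = 0.00496). acadvl, the first enzyme of the cycle for long chains, had 44.5, 31.3 and 37.7 normalised FPKM in large muscle libraries, against 65.6, 68.8 and 68.3 normalised FPKM in small muscle libraries (-0.93 ± 0.17 (SE), adjusted p = 0.00633). For both genes all large libraries lay well below all small ones, and the small libraries were close together. acaa2, the last enzyme of the mitochondrial cycle, had 53.1, 40.96 and 47.9 normalised FPKM in large muscle libraries, against 68.6, 64.7 and 81.3 normalised FPKM in small muscle libraries (-0.69 ± 0.17 (SE), adjusted p = 0.0179). acaa1, its peroxisomal counterpart, had 14.7, 14.1 and 12.8 normalised FPKM in large muscle libraries, against 19.7, 19.5 and 19.6 normalised FPKM in small muscle libraries (-0.59 ± 0.17 (SE), adjusted p = 0.0315). Neither gene showed overlap between the size classes, and with DESeq2 acaa1 did not pass (adjusted p = 0.075). The other members did not pass and lay on both sides of 0. hadha had 45.6, 64.04 and 54.1 normalised FPKM in large muscle libraries, against 69.6, 67.99 and 71.1 normalised FPKM in small muscle libraries (-0.44 ± 0.17 (SE), adjusted p = 0.093). The log2 fold change was -0.38 ± 0.18 (SE), adjusted p = 0.156 for hadhb, 0.52 ± 0.19 (SE), adjusted p = 0.0793 for echs1 and 0.13 ± 0.16 (SE), adjusted p = 0.61 for LOC103384097.

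Both genes that were higher in large muscle were among those highest in gonad. acsl5 had 63.2, 159 and 84.9 normalised FPKM in large muscle libraries, against 28.6, 33.1 and 31.9 normalised FPKM in small muscle libraries (1.63 ± 0.31 (SE), adjusted p = 0.00674), and acat2 had 8.88, 9.35 and 5.49 normalised FPKM in large muscle libraries, against 1.73, 4.13 and 3.77 normalised FPKM in small muscle libraries (1.22 ± 0.36 (SE), adjusted p = 0.0366). All large libraries exceeded all small ones, and for both genes large replicate 2 was the highest. acsl3, another gonad-high gene, had 2.61, 3.33 and 2.78 normalised FPKM in large muscle libraries, against 1.54, 1.72 and 0.684 normalised FPKM in small muscle libraries and did not pass (1.06 ± 0.37 (SE), adjusted p = 0.0667). The oocyte and ovary genes moved in the same libraries: 6 of the 7 tested were higher in large muscle and 0 lower (13.1% and 10.4% of all genes), with a median log2 fold change of 1.58 over the 7, and their summed level was highest in large replicate 2. On the normalised scale acat2 stood at 20.5, 21.6 and 12.7% of its gonad mean in large muscle and at 3.99, 9.55 and 8.72% in small muscle. The percents of eci1 and cpt2 below are on that scale too. The gonad-high genes eci1 and cpt2 did not pass in muscle (log2 fold changes of -0.15 and 0.20). eci1 stood at 46.3, 55.0 and 41.2% of its gonad mean in large muscle and at 48.6, 48.9 and 51.7% in small muscle. cpt2 stood at 28.9, 38.9 and 29.9% of its gonad mean in large muscle and at 25.7, 24.7 and 29.8% in small muscle. In these 6 libraries a difference in muscle fibres and a difference in ovary-type RNA cannot be told apart for acsl5 and acat2.

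Further markers differed between the muscle groups. The 2 genes found of 10 adipocyte symbols searched summed to 54.8 to 85.96 in large muscle, against 21.7 to 26.5 in small muscle. They summed to more in gonad (221 to 298) and liver (695 to 4233), so their sum cannot be read as fat cell content. The 4 exocrine pancreas genes summed to 24.8 to 136 in large muscle, against 178 to 200.01 in small muscle. Both erythrocyte genes were lower in large muscle (10.4% of all genes were), at summed levels of 51.1 to 58.1 in large muscle against 145 to 164 in small muscle. Of 8 slow or red muscle genes, whose fibres are the oxidative ones, 0 passed by edgeR and 0 had an unadjusted p under 0.05, and their sum was 511 to 1130.3 in large muscle, against 540.0 to 563 in small muscle. The mitochondrial content list summed to 1872 to 2026 in large muscle, against 2042 to 2142 in small muscle, with 1 of 17 genes higher and 2 lower (13.1% and 10.4% of all genes). Hepatocyte genes were at 2.38, 0.165 and 0.194% of their liver mean in large muscle and at 1.75, 1.76 and 1.86% in small muscle. As a percent of its liver mean, acaa1 was at 27.8, 26.7 and 24.3% in large muscle and 37.4, 36.9 and 37.2% in small muscle. Their part in the lower levels of cpt1ab, acadvl, acaa2 and acaa1 was not tested. With the 3 nearly alike small muscle libraries summed to 1, 0 members passed (0 of 14944 genes did in all). For muscle fits that left out 1 library, too, calls over all genes are not given here. Without small replicate 1, 2 or 3 in turn 1 member was higher (acsl5) and 2 lower (cpt1ab and acadvl). Without large replicate 1 the counts of members were 1 higher and 9 lower. On deposited FPKM with limma 1 was higher (acsl5) and 3 lower (cpt1ab, acadvl and acaa2). Of all 11399 genes tested on that scale, 799 were higher and 707 lower.

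**Figure D5:**
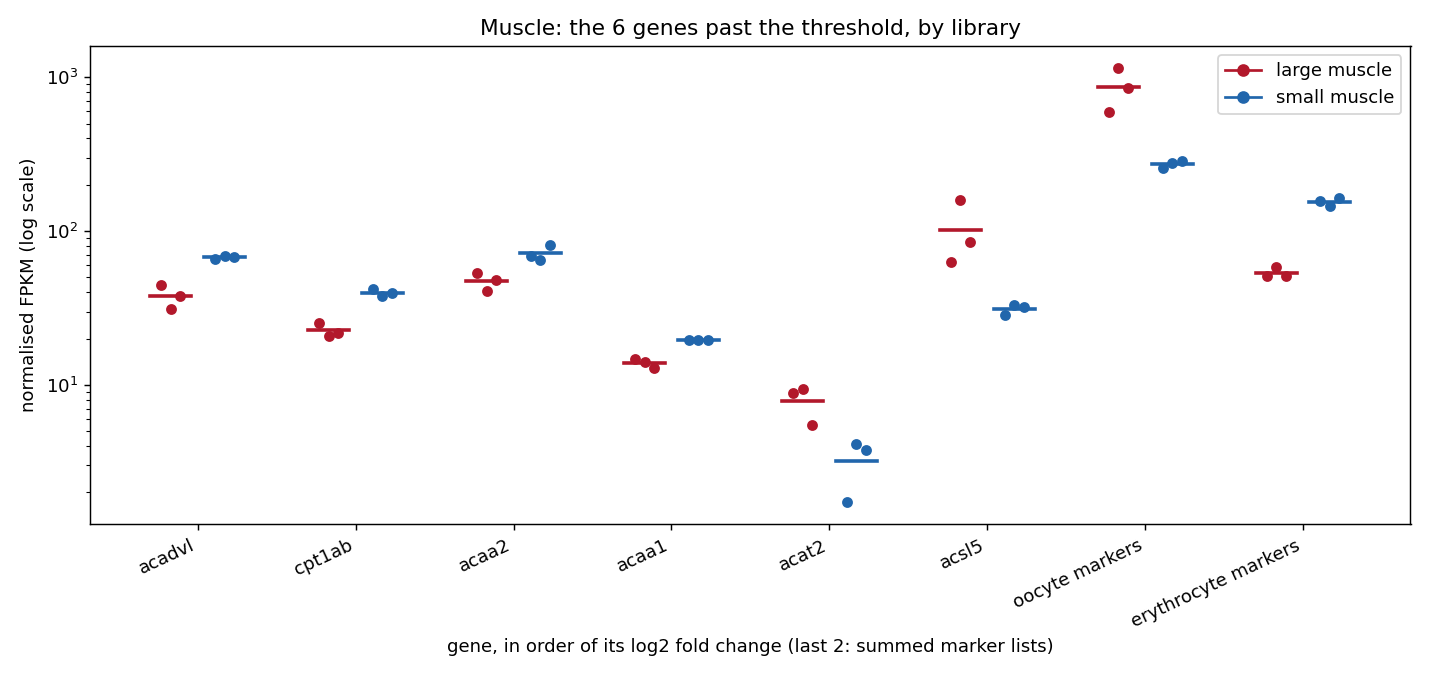
Normalised FPKM (log axis) of the 6 genes past the threshold in muscle, by library (points) with the mean of 3 (lines), large muscle left (red) and small muscle right (blue), followed by the summed oocyte and erythrocyte markers. acadvl, cpt1ab, acaa2 and acaa1 lay lower in large muscle; acat2, acsl5 and the oocyte markers lay higher there.

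In pituitary, acsl6 was the one gene that passed. It had 9.31, 8.75 and 8.18 normalised FPKM in large pituitaries, against 11.6, 12.00 and 12.3 normalised FPKM in small pituitaries, with all large libraries below all small ones (-0.47 ± 0.09 (SE), adjusted p = 0.0228). In brain, where its level was alike, it had 10.9, 9.81 and 6.68 normalised FPKM in large brains, against 11.4, 11.5 and 12.2 normalised FPKM in small brains (-0.37 ± 0.19 (SE), adjusted p = 0.811). The pituitary call was lost without small replicate 1, 2 or 3 in turn, with the 3 nearly alike small libraries summed (0 of 16940 genes passed in all), in a fit over all 30 libraries, and with limma on FPKM under both pseudocounts. The count of genes higher in large pituitaries was 0 with DESeq2 and with limma too. Of the 32 genes, 4 had an unadjusted p under 0.05 in either direction, where 3574 of all 15668 genes tested had such a p. Among these 4, ehhadh was at 5.34, 5.13 and 5.96 normalised FPKM in large pituitaries, against 4.39, 3.57 and 3.55 normalised FPKM in small pituitaries (0.50 ± 0.13 (SE), adjusted p = 0.0668). Also among them, cpt1a2b was at 13.97, 14.3 and 15.1 normalised FPKM in large pituitaries, against 17.7, 16.98 and 17.5 normalised FPKM in small pituitaries (-0.28 ± 0.08 (SE), adjusted p = 0.0779). Some markers of other tissues were lower in large pituitaries too, where 3.4% of all genes were: 3 of 9 hepatocyte genes tested passed, with overlapping sums of 44.9 to 227 in large pituitaries against 95.7 to 103 in small pituitaries, and so did 1 gene each of the exocrine pancreas, erythrocyte and slow muscle lists. Their part in the acsl6 result was not tested. Without large replicate 2, the library that held muscle markers, 1 gene was higher (ehhadh) and 4 were lower, hadha and acads among them. That library had the highest value of the 6 for acadvl, eci2, hadha and hadhb, for example 12.7 normalised FPKM of acadvl, against 7.61 to 8.51 in the other 5. Calls over all genes without that library are not given here, and the part of its muscle markers in these counts was not tested.

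In liver no gene passed by edgeR. Of the 28 tested, 6 had an unadjusted p under 0.05, where 2382 of all 11878 genes tested had such a p. LOC103384097, the hydroxyacyl-CoA dehydrogenase, came nearest, with 208, 137 and 139.8 normalised FPKM in large livers, against 96.8, 87.2 and 85.9 normalised FPKM in small livers. All large livers exceeded all small ones on this scale, with replicate 1 the highest (0.94 ± 0.27 (SE), adjusted p = 0.114), and with DESeq2 it passed at an adjusted p of 0.0426. On deposited FPKM the size classes overlapped, at 60.2, 62.7 and 44.1 in large livers and 58.2, 54.9 and 41.4 in small livers. cpt2 had 7.45, 6.93 and 5.77 normalised FPKM in large livers, against 15.6, 12.4 and 10.02 normalised FPKM in small livers, without overlap (-0.84 ± 0.26 (SE), adjusted p = 0.127), and cpt1a2b had 14.2, 13.95 and 11.2 normalised FPKM in large livers, against 27.6, 17.7 and 21.3 normalised FPKM in small livers (-0.68 ± 0.25 (SE), adjusted p = 0.18). Thus cpt2 and cpt1a2b lay lower in every large liver but did not pass. cpt1ab, the other carnitine shuttle gene tested in liver, had a log2 fold change of -0.05. It made up 42.8% of the summed FPKM of the 3 liver-type CPT1 genes in large livers and 31.8% in small livers. acsl6 had 1.14, 1.87 and 1.52 normalised FPKM in large livers, against 0.233, 0.603 and 0.788 normalised FPKM in small livers (1.68 ± 0.51 (SE), adjusted p = 0.126), at low level. With limma on deposited FPKM, where the median of all genes lay at -0.59, 0 members were higher and 4 lower, and without small replicate 3 edgeR called cpt2 lower. That limma fit called 96 higher and 1053 lower of all 9924 genes. With the spread shared over all 30 libraries 2 were higher (LOC103384097 and acsl6) and 6 lower, cpt2 and cpt1a2b among them. Of all 19511 genes in that shared fit, 1115 were higher and 1358 lower in large livers. Several marker sums differed between these libraries. These sums carry the liver factors, which were 0.289 to 0.459 in large livers and 0.482 to 0.630 in small livers. Exocrine pancreas sums were higher in 2 of 3 large livers than in any small one, and hepatocyte genes summed to 201256 to 254501 in large livers against 120015 to 178474 in small livers. Of the 10 hepatocyte genes, 0 passed by edgeR and 0 had an unadjusted p under 0.05. The 2 genes found of 10 adipocyte symbols searched summed to 2499.6 to 4233 in large livers against 695 to 2471 in small livers. The mitochondrial list overlapped in sum, at 819 to 1009 in large livers against 799 to 1133 in small livers, with 1 of 16 genes tested lower (0.581% of all genes were) and a median log2 fold change of -0.44. Their part in these values was not tested.

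In brain no gene had an unadjusted p under 0.05, with a smallest adjusted p of 0.798, and DESeq2 and limma also called 0 (of all genes tested by edgeR, 1069 had such a p). The largest log2 fold change was that of acsl5, with 0.781, 1.32 and 6.29 normalised FPKM in large brains, against 1.14, 0.698 and 0.812 normalised FPKM in small brains (1.61 ± 0.72 (SE), adjusted p = 0.798), which rested on large replicate 3: without that library it was 0.22. For the other 31 genes it lay between -0.37 and 0.23.

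Whether the size effect differed between tissues was tested over all 30 libraries. Of 32 genes, 10 passed, where 25.9% of 19511 genes did. eci2 had log2 fold changes of -0.96 in gonad and 0.41 in pituitary, with liver at -0.34, muscle at -0.13 and brain at -0.09 (interaction adjusted p = 0.00164). acsl3 had -0.80 in gonad and 1.06 in muscle (adjusted p = 0.00218), and acat2 had -0.76 in gonad and 1.22 in muscle (adjusted p = 0.0323). These 3 genes were lower in large gonads and lay on the other side of 0 in another tissue. Of the values on that other side, only that of acat2 in muscle passed the size test of its tissue. The pituitary value of eci2 lay between 0.15 and 0.58 in the fits that left out 1 library. acads stood out by its gonad value of 1.33, against -0.33 to 0.08 in the other 4 tissues (adjusted p = 0.00502). The fit treats the 30 libraries as independent, as do the tissue contrasts. With 6 fish per size class, and 3 pools of 2 fish per tissue, the tissues of a size class share fish. The labels do not say whether same-numbered libraries do. With a replicate block acat2 (adjusted p = 0.0539) and acadvl (adjusted p = 0.0634) did not pass. The difference for acsl5, -0.48 in gonad and 1.63 in muscle, did not pass (adjusted p = 0.082).

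Genes that work with the pathway but carry other annotations were taken from a list of 27 partners found in the table, among them the carnitine carriers, electron transfer flavoproteins, auxiliary reductases and the enzymes of propionate and ketone bodies. In gonad 3 of 26 tested were higher and 4 lower, near the 10.9% and 13.5% of all genes. crot, the peroxisomal carnitine octanoyltransferase, was lower, at 22.4 ± 1.33 normalised FPKM in large gonads and 50.1 ± 9.35 in small gonads (SD, n = 3 each; log2 fold change -1.14 ± 0.14 (SE), adjusted p = 0.00141). mcee, an epimerase of propionate breakdown, was lower too, at 40.4 ± 1.54 normalised FPKM in large gonads and 64.8 ± 10.2 in small gonads (SD, n = 3 each; log2 fold change -0.66 ± 0.13 (SE), adjusted p = 0.00808). pecr, a peroxisomal reductase, was higher, at 42.1 ± 0.416 normalised FPKM in large gonads and 26.2 ± 5.36 in small gonads (SD, n = 3 each; log2 fold change 0.72 ± 0.15 (SE), adjusted p = 0.0107). These gonad comparisons use the nearly alike large gonad libraries, so their p-values may be too small. In muscle 1 of 26 was higher and 4 lower, where 13.1% and 10.4% of all genes were. mlycd, which removes the malonyl-CoA that blocks CPT1, was at 54.3 ± 5.27 normalised FPKM in large muscle libraries and 113 ± 3.61 in small muscle libraries (SD, n = 3 each; log2 fold change -1.15 ± 0.16 (SE), adjusted p = 0.00247), and crot at 15.4 ± 4.62 normalised FPKM in large muscle libraries and 28.3 ± 0.962 in small muscle libraries (SD, n = 3 each; log2 fold change -0.96 ± 0.22 (SE), adjusted p = 0.0131), both lower in large muscle. In pituitary amacr, a racemase of branched acyl-CoA, was the 1 of 27 partners that passed, at 12.6 ± 1.09 normalised FPKM in large pituitaries and 8.99 ± 0.579 in small pituitaries (SD, n = 3 each; log2 fold change 0.47 ± 0.11 (SE), adjusted p = 0.0496). In liver edgeR called 0 of 26 (2 with an unadjusted p under 0.05) and in brain 0 of 27 (2 with such a p). Of all genes tested, 2382 of 11878 in liver and 1069 of 16878 in brain had such a p.

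Of 10 regulators, the PPAR and RXR receptors, esrra and 2 coactivators, 3 passed in 1 tissue each. Of those tested, 1 of 9 was lower in muscle, 1 of 9 lower in liver and 1 of 10 higher in pituitary. Of all genes, 10.4%, 0.581% and 2.42% were called in the same directions. In gonad 0 of 6 and in brain 0 of 10 passed. ppargc1a, the coactivator PGC-1 alpha that raises mitochondrial oxidation in mammals, was at 0.267 ± 0.298 normalised FPKM in large muscle libraries and 1.85 ± 0.576 in small muscle libraries (SD, n = 3 each; log2 fold change -2.94 ± 0.65 (SE), adjusted p = 0.012), lower in large muscle at a low level. ppard, a receptor for fatty acids, was at 5.95 ± 0.621 normalised FPKM in large livers and 18.2 ± 3.10 in small livers (SD, n = 3 each; log2 fold change -1.53 ± 0.26 (SE), adjusted p = 0.0301), lower in large livers. rxra, the common partner of these receptors, was at 16.9 ± 3.17 normalised FPKM in large pituitaries and 10.2 ± 1.02 in small pituitaries (SD, n = 3 each; log2 fold change 0.72 ± 0.15 (SE), adjusted p = 0.0286), higher in large pituitaries. With the nearly alike libraries of a group summed, 0 genes passed in pituitary or in muscle, so rxra and amacr in pituitary and mlycd, crot and ppargc1a in muscle did not pass either. The other regulators tested in these tissues did not pass.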

How the data were processed

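RNA was prepared with Trizol, and libraries followed standard Illumina steps, per the labels. Per the file headers, the authors deposited an FPKM and a count for each gene and library. The authors' counts are estimated counts, since 2.00% of them were not whole numbers (any fraction counted), and they were rounded here. The submitters' processing notes name edgeR; which aligner, quantifier and build were used is not stated there.

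Symbols are the table's, with RefSeq symbols where it gives only a gene number (19502 of 20373 gene numbers matched). Members, steps and lists were chosen with earlier results of these data known. Large minus small was tested per tissue with edgeR 4.0.16 in R 4.3.3 (filterByExpr, TMM, quasi-likelihood F test, two-sided, Benjamini-Hochberg, threshold 0.05); tissue contrasts and the interaction of size and tissue (4 contrasts) over 30 libraries and 10 group means. The SE is the log2 fold change over the square root of F. Marker and level sums use normalised FPKM, defined in the report. Alternatives were DESeq2 1.42.0, RLE factors, no filter on low counts, limma 3.58.1 on log2(FPKM + 1) or log2(FPKM + 0.1) with genes at 1 FPKM or more in at least 3 libraries, the same with no filter, a shared fit over 30 libraries, a replicate block, nearly alike libraries summed, and each library left out. The fits were tested on simulated data.

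Named in full were members past a threshold and the member with the highest mean FPKM in each step, which were acsl5, cpt1ab, acadm, eci1, LOC103384097 and hadhb; of the other lists, at most 6 genes per tissue past the threshold with the smallest p. Markers and listed genes were matched by symbol, and many symbols searched matched none. These were 3 of 28 partners (acacb among them) and 2 of 20 lipid genes (fabp11 and plin1). Among markers they were 11 of 16 for fast muscle, 8 of 16 for slow muscle, 9 of 13 for exocrine pancreas, 8 of 10 for adipocyte and 4 of 6 for erythrocyte. They were 5 of 21 for mitochondrial content, 3 of 9 each for neuron and pituitary, 1 of 11 for hepatocyte and 1 of 10 for oocyte. Counting error and the spread between pooled libraries set the precision, and depth (6130667 to 10504899 counts) limits the 3 lowest members. Of the members and listed genes, 1 member and 1 partner that enter the counts are not reported here by name. No genome sequence was used here.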

Additional observations from a re-analysis of the deposited data

Results flagged for a closer look

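For 10 genes the effect of size differed between the 5 tissues by the interaction test over all 30 libraries, with these adjusted p-values: eci2 0.00164, acsl3 0.00218, acsl6 0.00227, LOC103384097 0.00448, LOC103396006 0.0045, acads 0.00502, cpt2 0.0056, eci1 0.0109, acat2 0.0323 and acadvl 0.0408. For acsl6 the log2 fold changes within each tissue, large minus small, were -0.47 in pituitary and -0.37 in brain, against 1.68 in liver and 0.81 in muscle. For LOC103384097 they were 0.94 in liver and -0.34 in gonad, and for LOC103396006 1.31 in gonad and -0.87 in liver. cpt2 had -0.84 in liver and 0.20 in muscle, eci1 had 0.56 in liver and -0.57 in gonad, and acadvl had -0.93 in muscle and 0.23 in brain. acadvl no longer passed in 20 of the 30 fits that left out 1 library, with an adjusted p between 0.00433 and 0.0756, and acat2 in 5 of them, with one between 0.00125 and 0.101. The other 8 genes passed in all 30 such fits. With limma on log2(FPKM + 1), LOC103384097 (adjusted p = 0.575), eci1 (0.314) and acat2 (0.0573) did not pass.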

How the results depend on the processing

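With the 3 nearly alike libraries of a group summed to 1, the counts were 0 lower in pituitary, 0 higher and 0 lower in gonad, and 0 higher and 0 lower in muscle; this leaves 1 sample against 3, assumed to vary like them. Leaving out 1 library in turn, pituitary had 0 to 1 higher and 0 to 4 lower, liver 0 to 1 lower, gonad 1 to 6 higher and 4 to 8 lower, and muscle 1 to 2 higher and 2 to 9 lower. A fit over all 30 libraries gave 0 lower in pituitary, 2 higher and 6 lower in liver, 2 higher in gonad and 6 higher in muscle. Of the 19511 genes in that fit, 101 were lower in pituitary, and 1115 were higher and 1358 lower in liver. In gonad 1001 of them were higher, and in muscle 2944. DESeq2 gave 1 higher in liver, where 411 of 12600 genes were. With limma on log2(FPKM + 1) the counts were 0 lower in pituitary, 4 lower in liver, 9 higher in gonad and 1 higher in muscle. Of all genes it called 428 of 15135 lower in pituitary and 1053 of 9924 lower in liver. It called 3735 of 12481 higher in gonad and 799 of 11399 higher in muscle. With limma on log2(FPKM + 0.1) the member counts were 0 lower in pituitary, 3 lower in liver, 8 higher in gonad, and 1 higher and 2 lower in muscle. Without a filter on low FPKM, muscle had 0 higher and 0 lower. For the fits with 0.1, those without this filter and those that left out 1 library, calls over all genes are not given here. Members whose size effect differed between tissues numbered 19 on FPKM, where 8151 of 19462 genes passed. Against the other 4 tissues, FPKM gave 25 higher and 4 lower in brain, 19 and 5 in pituitary, 3 and 26 in liver, 20 higher in gonad, and 2 and 23 in muscle, and turned the sign of cpt1ab in muscle (-0.29), acadm in liver (-0.63), LOC103384097 in liver (-0.22) and hadhb in muscle (-0.18). The cause of these changes was not tested. Same-numbered large and small libraries correlated at -0.014 to 0.192 in brain and within ±0.05 elsewhere. Of 6 libraries each, 4, 2, 2, 3 and 0 in brain, pituitary, liver, gonad and muscle correlated best with their own number. With 3 libraries per group these values cannot settle whether the numbers mark pairs or a shared batch. A replicate block gave 0 lower in pituitary, 3 higher in gonad, and within 1.5 times the count elsewhere. Of all genes it called 357 of 15668 lower in pituitary and 1361 of 14123 higher in gonad. None of the 18 size effects of members past the threshold changed direction under these alternatives. Their results for single genes of the partner, regulator and lipid lists are not given here. Across tissues, same-numbered libraries of a size class correlated at -0.035 to 0.257 over 60 pairs, 6 of them above 0.1, the 3 large pituitary and liver pairs among these.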

Other observations

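Genes that bring fatty acids to the pathway were looked at in a list of 21 for lipid uptake, storage and release. In muscle 3 of 16 tested were higher and 3 lower in large females, where 13.1% and 10.4% of all genes were. dgat2, which closes the synthesis of triglycerides, was at 22.7 ± 5.36 normalised FPKM in large muscle libraries and 6.19 ± 0.957 in small muscle libraries (SD, n = 3 each; log2 fold change 1.78 ± 0.22 (SE), adjusted p = 0.00208), and fabp4b, a fatty acid binding protein, at 708 ± 198 normalised FPKM in large muscle libraries and 249 ± 14.8 in small muscle libraries (SD, n = 3 each; log2 fold change 1.42 ± 0.22 (SE), adjusted p = 0.00337), both higher in large muscle. lpl, the lipase that frees fatty acids from circulating lipoproteins, was at 21.5 ± 2.80 normalised FPKM in large muscle libraries and 42.2 ± 1.41 in small muscle libraries (SD, n = 3 each; log2 fold change -1.06 ± 0.16 (SE), adjusted p = 0.00327), lower in large muscle. With the nearly alike small muscle libraries summed, these 3 calls were lost, as 0 of 14944 genes passed. fabp4b is another gene of high level in gonad, at 3503 in large and 5722 in small gonads, and the oocyte markers given in the report moved with it in muscle; their part was not tested. In gonad 4 of 13 were higher and 1 lower, where 10.9% and 13.5% of all genes were. lipea, a hormone-sensitive lipase, was at 0.806 ± 0.0700 normalised FPKM in large gonads and 0.276 ± 0.0572 in small gonads (SD, n = 3 each; log2 fold change 1.58 ± 0.33 (SE), adjusted p = 0.00922), and lpl at 1.52 ± 0.381 normalised FPKM in large gonads and 0.368 ± 0.309 in small gonads (SD, n = 3 each; log2 fold change 2.05 ± 0.49 (SE), adjusted p = 0.0161), both higher in large gonads and both at low level. Here too the large gonad libraries were nearly alike, and the p-values may be too small. In pituitary, liver and brain edgeR called 0 of 17, 0 of 15 and 0 of 17, with 6, 7 and 2 genes at an unadjusted p under 0.05. Of all genes tested in these tissues, 3574 of 15668, 2382 of 11878 and 1069 of 16878 had such a p.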
